A study of Mus musculus with 19 samples.

Results

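The genes described here are 48 signalling genes of the cardiomyocyte (CMC), chosen by name for their place in hypertrophic and adrenergic signalling, of 20923 protein-coding genes with a curated RefSeq transcript on chromosomes 1 to 19 and X. They were chosen with earlier results of these data known. Their spans ran from 3.03 kb (Adrb1) to 1302 kb (Pde4d), with a median of 71.5 kb, and the measure was the percent of each span, from the first transcription start site (TSS) to the last transcript end, that lay in peaks of 5-hydroxymethylcytosine (5-hmC). The 48 genes fell into 7 roles: 7 receptors, 8 genes of Gq, phospholipase C and protein kinase C, 8 of cyclic nucleotide signalling and its anchors, 9 of calcineurin, NFAT and CaMKII, 8 of PI3K, Akt, mTOR and Foxo, 5 MAP kinases and 3 transcription factors.

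The data were peak lists of hydroxymethylated DNA immunoprecipitation sequencing (hMeDIP), in which sonicated DNA is pulled down with a 5-hmC antibody and compared with input DNA. CMCs came from male C57BL/6J mice at 4 points, with 2 biological replicates each: ventricles of E14.5 embryos, ventricles of neonatal pups of 1 to 2 days, the left ventricle of adult mice of 2 months, and the left ventricle of adults operated 1 week earlier for transverse aortic constriction (TAC). TAC narrows the aorta and loads the heart with pressure. Embryonic and neonatal CMCs were separated from other cells by adhesion in culture dishes, adult and TAC CMCs by sedimentation. Stage and isolation therefore cannot be told apart between neonatal and adult. TAC was compared with adult CMCs that the study calls normal. The study also describes a sham-operated group, but neither it nor the labels say whether the adult lists came from operated mice. Load and surgery therefore cannot be told apart either.

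5-hmC is made from 5-methylcytosine by the TET dioxygenases and in many tissues lies on the bodies of active genes and on enhancers. In the heart, catecholamines, angiotensin and endothelin act on receptors that couple to Gq, whose phospholipase C branch activates protein kinase C and raises calcium, and calcium-activated calcineurin dephosphorylates NFAT, which enters the nucleus. Insulin and IGF1 receptors act through PI3K and Akt, which hold Foxo factors out of the nucleus and feed mTOR, and both branches are known for their part in the growth of CMCs.

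The 8 lists held 104215 to 153637 peaks that covered 2.47 to 4.50% of the genome. The list of TAC replicate 2 stood apart. Of its 728 peaks centred in the 48 genes, 3.43 to 8.24% lay within 150 bp of the nearest peak centre of another list. Between the other 7 lists this share was 12.7 to 47.2%. At 400 to 700 bp lay 16.5 to 21.6% of its peaks, against 5.69 to 11.3% between the other 7 lists. Its share of base pairs in common with any other list was the lowest (Jaccard index 0.078 to 0.128 within the 48 genes, against 0.173 to 0.414 between the other 7 lists). The study reports fewer overlapping peaks in TAC at a comparable global correlation of replicates. It proposes that the pathological condition is more variable, which was not tested here. The mean coverage of the 48 genes and the counts of genes without overlap are therefore given with and without TAC replicate 2. Other TAC means, SDs and log2 differences include it unless stated. Of the 10 CMC marker genes 9 had a peak, and Pln was at 0 in all lists. The mean coverage of the CMC markers was 11.5 to 32.7% over the lists, against 0.695 to 2.81% for 8 fibroblast markers (Col3a1 and Tcf21 at 0), 4.32 to 11.1% for 6 endothelial, 4.12 to 14% for 4 smooth muscle and pericyte and 0.267 to 22.5% for 5 leukocyte markers. The lowest value of each group was in a TAC list. Coverage is not expression, and in bulk DNA fewer cells with the mark and less mark per cell cannot be told apart.

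In peaks of all 7 lists other than TAC replicate 2 lay 76 regions in 20 of the 48 genes, 37944 bp in all. Of these regions 70 lay wholly in introns, which held 95% of their base pairs, beside 96.8% of the base pairs of the whole spans. The 4 genes with the most such base pairs were Prkce (6036 bp), Nfatc2 (5086 bp), Igf1r (3922 bp) and Rcan1 (3312 bp). The middle 300 bases of the widest such region of each are shown, as sites listed with 5-hmC from the embryo to the adult and in TAC replicate 1, read from the plus strand of GRCm38, the assembly of mm10, with each CpG, the dinucleotide in which most methylated cytosines of mammals lie, in capitals.
Prkce, chr17:86330677-86330976: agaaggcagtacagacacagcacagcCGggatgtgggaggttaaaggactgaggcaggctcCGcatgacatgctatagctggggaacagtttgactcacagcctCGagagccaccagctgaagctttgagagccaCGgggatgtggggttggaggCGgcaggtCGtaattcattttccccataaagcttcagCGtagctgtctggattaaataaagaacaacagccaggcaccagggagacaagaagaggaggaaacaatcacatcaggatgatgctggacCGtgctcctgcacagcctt
Nfatc2, chr2:168563851-168564150: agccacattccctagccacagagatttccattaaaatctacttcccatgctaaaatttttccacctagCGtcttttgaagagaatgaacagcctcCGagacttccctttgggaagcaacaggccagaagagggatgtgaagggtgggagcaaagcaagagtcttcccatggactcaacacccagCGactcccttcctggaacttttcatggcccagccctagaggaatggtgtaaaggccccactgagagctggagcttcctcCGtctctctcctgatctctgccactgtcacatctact
Igf1r, chr7:68062780-68063079: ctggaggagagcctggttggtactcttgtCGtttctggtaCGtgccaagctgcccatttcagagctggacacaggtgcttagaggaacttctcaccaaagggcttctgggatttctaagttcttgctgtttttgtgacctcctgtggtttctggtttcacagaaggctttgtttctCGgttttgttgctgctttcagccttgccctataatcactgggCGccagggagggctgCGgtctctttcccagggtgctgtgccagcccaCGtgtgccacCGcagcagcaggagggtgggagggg
Rcan1, chr16:92412214-92412513: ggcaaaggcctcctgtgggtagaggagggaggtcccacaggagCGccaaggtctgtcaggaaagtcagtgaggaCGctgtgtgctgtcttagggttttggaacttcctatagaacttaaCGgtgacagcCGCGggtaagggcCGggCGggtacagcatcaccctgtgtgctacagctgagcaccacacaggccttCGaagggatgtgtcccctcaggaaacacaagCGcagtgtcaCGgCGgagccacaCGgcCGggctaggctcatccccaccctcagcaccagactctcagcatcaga

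These 4 stretches held 4 to 13 CpGs. Over all 48 genes CpGs were more frequent inside peaks than outside them in each of the 8 lists, at 1.5 to 1.66 per 100 bp inside peaks in the lists other than TAC replicate 2 and 1.17 in that list, against 0.920 to 0.993 outside. Soft-masked (repeat) sequence made up 15.1 to 22.4% of the base pairs in peaks and 23.5 to 24.4% of those outside.

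The question of how much of these genes carried 5-hmC was answered first against genes of their length. In each of the 8 lists the mean coverage of the 48 genes was above that of the other genes of the same length classes (20 classes of equal number over 18562 genes at least 2 kb long). The mean of the 48 genes was 10.54 and 10.3% in embryos, 14.8 and 17.6% in pups, 14.6 and 18.02% in adults and 13.9 and 7.09% after TAC. The length classes gave 5.62 and 5.36%, 6.48 and 7.83%, 6.19 and 7.96%, and 6.00 and 3.98%. The 48 genes were thus 1.78 to 2.36 times as covered as genes of their length, lowest in TAC replicate 2 and highest in adult replicate 1. The difference was 4.91 ± 0.00411 percentage points in embryos, 9.03 ± 1.04 in pups, 9.24 ± 1.16 in adults and 5.49 ± 3.36 after TAC (mean ± SD, n = 2). In TAC replicate 1 alone it was 7.86. These values are descriptions of named genes and carry no test. The genes were chosen with earlier results of these data known, and the part of that choice in the difference was not tested.

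**Figure D1:**
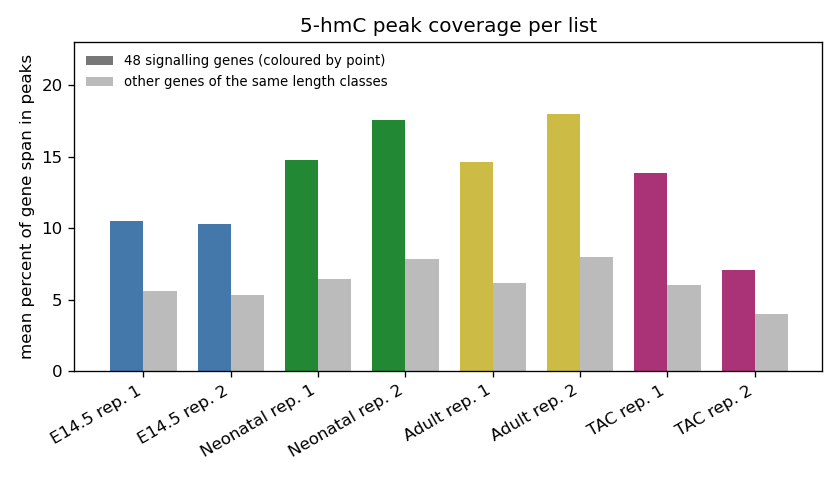
Bars give, for each of the 8 peak lists, the mean percent of the gene span in peaks over the 48 signalling genes (coloured by point) and over other protein-coding genes of the same length classes (grey). In each list the coloured bar is the higher, and TAC replicate 2 has the lowest pair, 7.09 and 3.98%.

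The difference was uneven among the genes. Of the 48 genes, 40 lay above the median of their length class by mean coverage over the 8 lists, 18 above its 90th percentile and 4 (Akt1, Foxo3, Rcan1 and Nfatc2) above its 99th. Per list, 29 to 35 of the 48 genes were above their class mean, and 44 to 48 had a peak, against 65.3 to 72.2% of all genes of at least 2 kb. The shares with a peak were not matched for length, on which holding any peak can depend. A peak was present in all 8 lists for 38 genes, and no gene was without a peak in all of them. At the low end were Rps6kb1 and Plcb1, with means of 1.61 and 1.67% over the 8 lists, and Prkg1 and Ppp3cb, with 1.80 and 1.99%. Prkg1, Mtor, Rps6kb1 and Map2k1 share base pairs of their spans with another protein-coding gene (Cstf2t, Angptl7, Rnft1 and Uchl4), so that peaks there cannot be told apart.

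**Figure D2:**
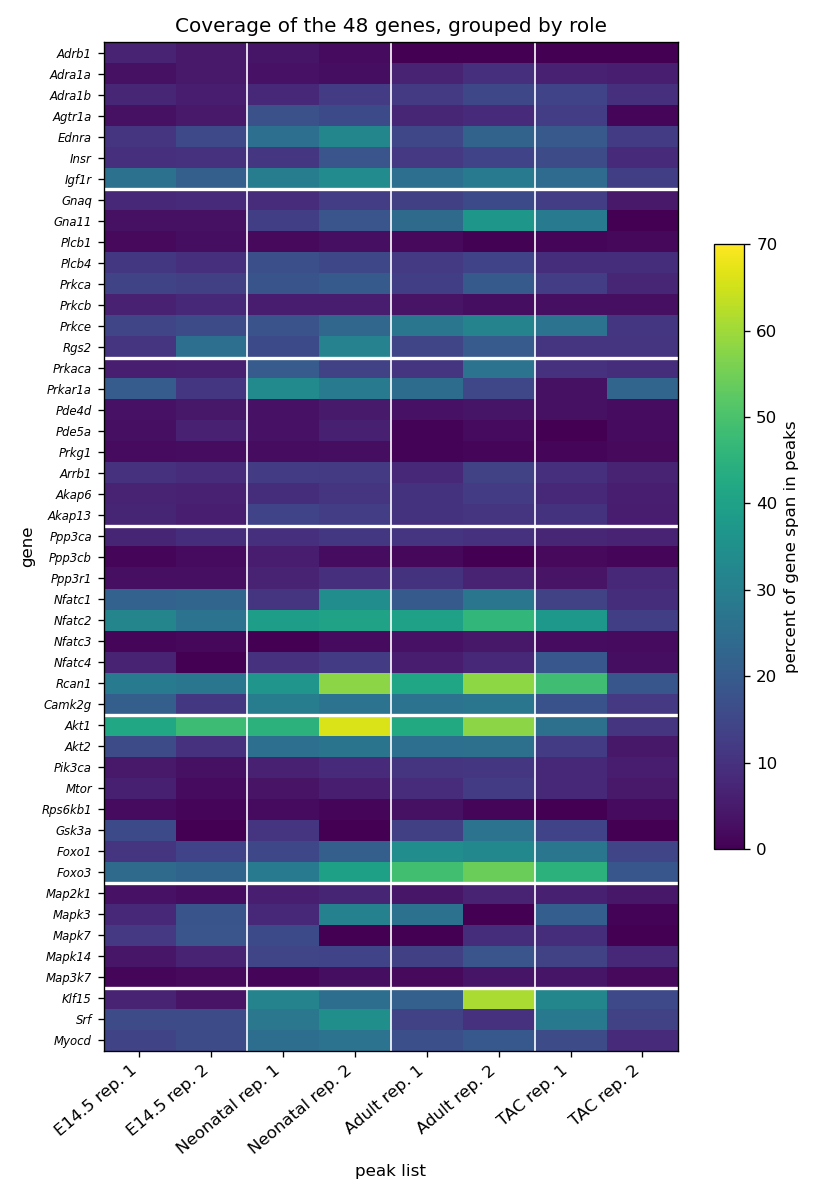
Colour gives the percent of the gene span in peaks for each of the 48 genes (rows, grouped by role with white lines between roles) in each of the 8 lists (columns). Akt1, Rcan1, Foxo3 and Nfatc2 have the highest means over the 8 lists, and the last column has the lowest value of the row, ties included, in 24 of the 48 genes.

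Differences between successive points were fitted for all genes together, with limma on log2(percent covered + 1) over the 14737 genes with a span of at least 2 kb and a peak in at least 3 of the 8 lists, which all 48 genes were among. At an adjusted p of 0.05 none of the 48 was called from E14.5 to neonatal (0.0136% of all genes tested were), from neonatal to adult (0.305%) or from adult to TAC (0.136%). The lowest adjusted p among the 48 was 0.577, 0.202 and 0.602 in these 3 comparisons, and 5, 4 and 2 of them had an unadjusted p below 0.05 (1032, 1431 and 1001 of all genes tested). Of 143 further genes of the same pathways, listed by role, 133 were tested and 0 were called in each comparison, with 10, 4 and 2 at an unadjusted p below 0.05. The median log2 difference of the 48 genes was 0.47, -0.09 and -0.57, that of the further pathway genes 0.34, -0.03 and -0.42, and that of all genes tested 0.24, -0.07 and -0.35. Without TAC replicate 2 the median of all genes tested from adult to TAC was -0.112. Between any pair of points, 2 samples against 2, no exact permutation test (two-sided) can go below p = 0.333. The description that follows therefore rests on the values per sample and on their overlap. Replicates that do not overlap means here that both samples of a point lie above both samples of the other.

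From E14.5 to neonatal most of the signalling genes were covered more. Both neonatal lists lay above both E14.5 lists in 31 of the 48 genes, where 27.7% of all genes tested did so, and below them in 2 genes (Adrb1 and Prkcb), where 6.89% did. In the other genes of the same length classes the shares were 29.9 and 7.82%, and in genes of like mean coverage 35.6 and 5.82%. With each list divided by its own share of the genome, 24 genes were higher and 3 lower, beside 21 and 16% of all genes. From neonatal to adult 10 genes were higher and 15 lower as listed (17.3 and 23.1% of all genes). When scaled to genome coverage 19 were higher and 8 lower (30.2 and 17.3%). In the other genes of the same length classes 14.1% were higher and 33.5% lower as listed, and 28.3 and 25.9% when scaled. In genes of like mean coverage the shares were 20.4 and 19.4% as listed and 36.7 and 13.3% when scaled. The direction of this step thus turned with the scaling, in the 48 genes as in all genes tested. CMC marker genes were covered for 28.9 and 32.7% in pups and 13.2 and 18.2% in adults, and leukocyte markers for 14.7 and 22.5% and 10.2 and 15.1%. Their part in this step was not tested.

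Higher in both steps, E14.5 to neonatal and neonatal to adult, were 6 genes: Gnaq, Gna11, Prkce, Pik3ca, Foxo1 and Foxo3, beside 5.17% of all genes tested. When scaled they were 10, with Akap6, Rcan1, Akt2 and Mapk14 added, beside 7.9% of all genes.

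The comparison of adult with TAC CMCs, the question of pressure load, showed lower coverage in TAC, by an amount that differed between its replicates. The mean over the 48 genes was 16.3 ± 2.41% in adult and 10.48 ± 4.79% in TAC (mean ± SD, n = 2), a difference of 5.84 percentage points with an SD of 5.36 from both groups. Without TAC replicate 2 it was 2.45 points, with the mean of TAC replicate 1 (13.9%) below both adult means. Scaled to genome coverage the difference was 3.74 points, and without TAC replicate 2 it was 0.352, from 17.1 and 16.6% in adults and 16.5% in TAC replicate 1. CMC marker genes went from 13.2 and 18.2% in adults to 11.9 and 11.5% after TAC, and leukocyte markers from 10.2 and 15.1% to 2.08 and 0.267%, and their part in this comparison was not tested. Both TAC lists lay below both adult lists in 23 of the 48 genes, where 25.4% of all genes tested did so, and above them in 1 gene, Srf, where 6.28% did. In the other genes of the same length classes 25.5% were lower and 8.43% higher, and in genes of like mean coverage 32.2 and 4.15%.

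Scaling to genome coverage left 12 of these 23 genes lower, beside 17.8% of all genes, and 2 higher (Srf and Prkg1), beside 12.9%. In genes of like mean coverage the scaled shares were 22.5% lower and 9.05% higher, so that the scaled share of the 48 genes that were lower, 25%, was near that of other genes as covered. With TAC replicate 1 alone, 27 genes were below both adult lists as listed (33.4% of all genes) and 5 above them (20.2%). When scaled, 17 were below (27.3%) and 14 above (32%). The 12 genes that were lower when scaled were Plcb4, Rgs2, Prkaca, Akap6, Ppp3ca, Nfatc1, Nfatc3, Camk2g, Akt1, Akt2, Pik3ca and Mtor. That they were also lower as listed and with TAC replicate 1 alone adds nothing. It follows from the scaled order, because both TAC lists covered less of the genome than both adult lists.

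**Figure D3:**
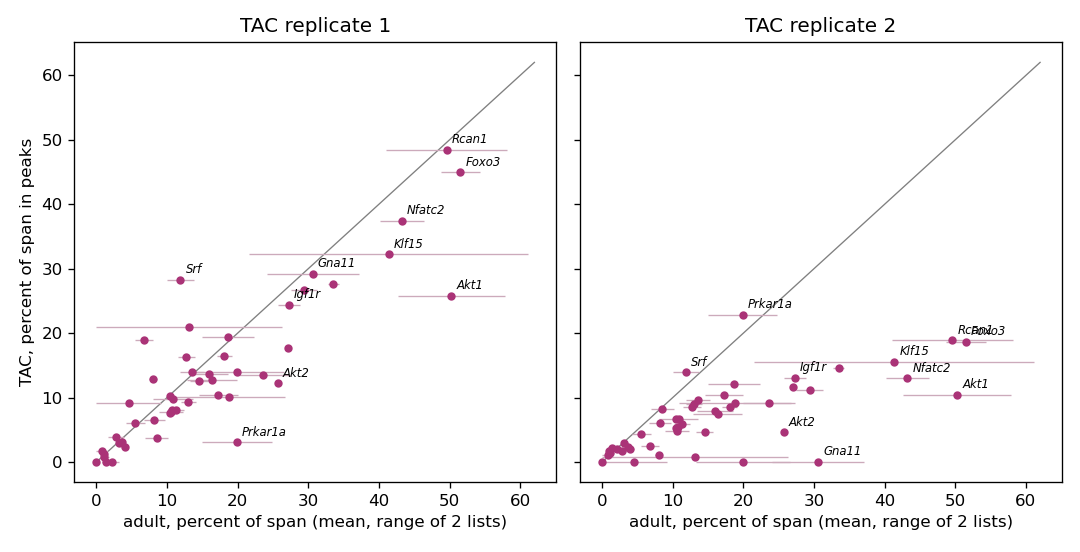
Each point is a signalling gene, with the mean adult coverage on the x axis (bar, range of the 2 adult lists) and the coverage in TAC replicate 1 (left) or 2 (right) on the y axis, both in percent of the gene span; the grey line marks equal values. In replicate 1 most genes lie close to the line, with Akt1, Akt2 and Prkar1a below and Srf above it, whereas in replicate 2 most lie far below.

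By role, the group of PI3K, Akt, mTOR and Foxo differed most, in percentage points, between adult and either neonatal or TAC CMCs. Its mean coverage was 15.2 and 12.6% in embryos, 17.2 and 21.2% in pups, 23.4 and 27.7% in adults and 17.5 and 7.57% after TAC. Both adult lists lay above the other 6. Relative to genes of their length the group stood at 2.45 ± 0.213, 2.53 ± 0.0418, 3.34 ± 0.205 and 2.24 ± 0.630 times (mean ± SD, n = 2). On that measure the transcription factors differed more between neonatal and adult CMCs (3.68 ± 0.398 and 2.80 ± 0.477 times). The mean of the Gq group was also highest in adult CMCs (15.7 ± 2.79%), but its lists overlapped those of neonatal CMCs (14.2 ± 2.70%), and the MAP kinases were closest to genes of their length, at 1.05 ± 0.328 times in adult CMCs. Receptors (15.4 ± 1.82%), cyclic nucleotide genes (11.8 ± 0.509%) and the 3 transcription factors (28.6 ± 0.581%) had their highest mean in neonatal CMCs.

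**Figure D4:**
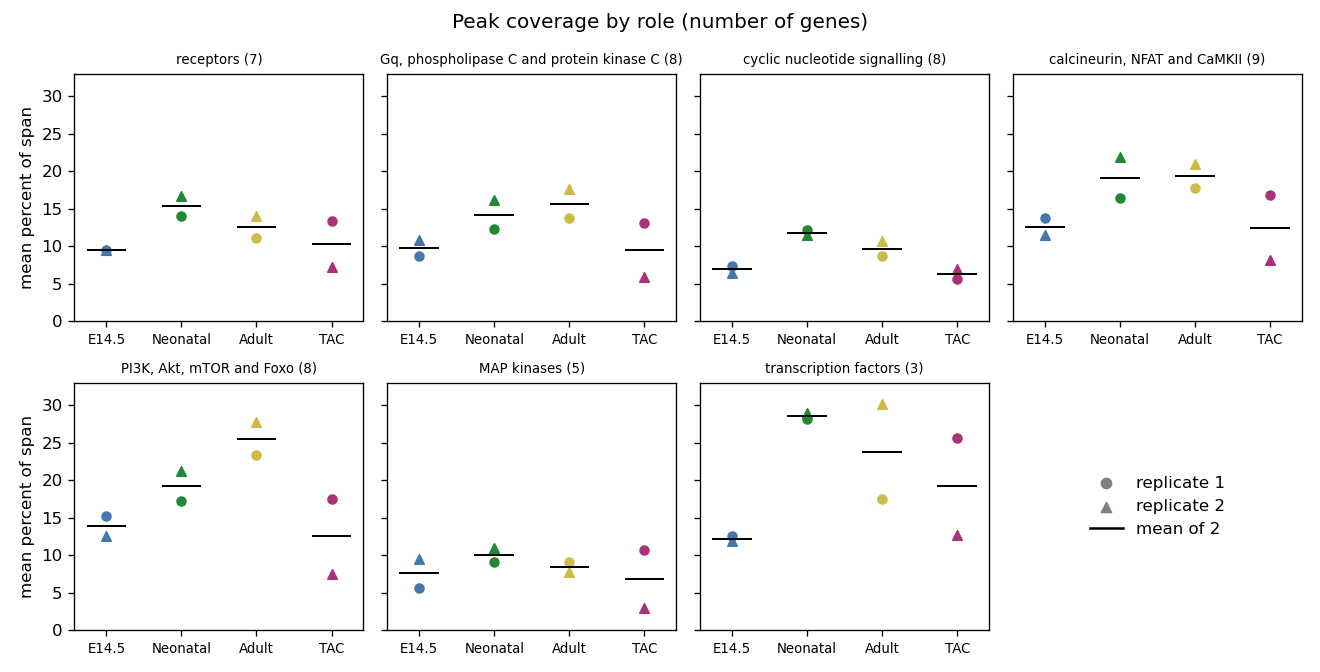
Each panel gives, for a role and its number of genes, the mean percent of the gene span in peaks in each replicate (circle, replicate 1; triangle, replicate 2) at each point, with a bar for the mean of 2. In the panel of PI3K, Akt, mTOR and Foxo both adult values, 23.4 and 27.7%, are above all others.

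Among the receptors, Igf1r and Ednra were covered most. Igf1r (chr7:67952257-68233667, plus strand), the receptor of insulin-like growth factor, had 26.2 and 21.1% of its span in peaks in embryos, 29.4 and 33.7% in pups, 25.7 and 28.8% in adults and 24.4 and 13.0% after TAC. Its neonatal values were above the embryonic ones and its TAC values below the adult ones as listed. When scaled to genome coverage, the values overlapped in both comparisons. Ednra (chr8:77663029-77724452, minus strand), the endothelin A receptor, had 10.8 and 15.4% in embryos, 25.6 and 32.1% in pups, 15.0 and 22.3% in adults and 19.5 and 12.1% after TAC. Its neonatal lists stood above the other 6, and the log2 difference to E14.5 was 1.09 ± 0.41 (SE; limma, adjusted p = 0.70).

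The adrenergic receptors did not share a course. Adra1a, the alpha-1A receptor, had 3.20 and 4.92% in embryos, 3.36 and 2.53% in pups, 6.68 and 9.73% in adults and 6.46 and 6.01% after TAC. Its adult values lay above the neonatal ones (log2 1.21 ± 0.44 SE; limma, adjusted p = 0.45) and its TAC values below the adult ones. When scaled to genome coverage, its adult and TAC values overlapped. Adra1b, the alpha-1B receptor, had 7.53 and 5.37% in embryos, 8.12 and 12.1% in pups, 11.8 and 15.3% in adults and 14.0 and 9.65% after TAC. As listed, neonatal lay above E14.5 without overlap. When scaled these overlapped, and adult lay above neonatal without overlap. Agtr1a, the angiotensin receptor, had 3.24 and 4.74% at E14.5 and 17.3 and 15.8% in neonatal lists, which did not overlap although the fit did not call the difference.

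Adrb1 (chr19:56722117-56725150, plus strand), the beta-1 adrenergic receptor that norepinephrine acts on in CMCs, is a short gene of which peaks touched only the end. Its coverage was 6.59 and 4.91% in embryos, 3.89 and 2.11% in pups and 0 in both adult and both TAC lists, and the fit gave it the lowest adjusted p of the 48 genes (neonatal to adult, log2 -1.96 ± 0.41 SE; limma, adjusted p = 0.20). The base pairs behind these values were few: 200 and 149 bp at E14.5 and 118 and 64 bp in neonatal lists, the margins of peaks that began 2834 to 2970 bp after the TSS and ran on beyond the gene. The order was the opposite close to the TSS. The 1 kb on each side of it was in peaks for 0% in both embryonic lists, 0 and 4.2% in pups, 26.6 and 10.9% in adults and 23.5 and 0% after TAC. The peak there ran in adult replicate 1 from 2508 to 468 bp before the TSS, in adult replicate 2 from 4060 to 783 bp and in TAC replicate 1 from 1652 to 531 bp before it. Peaks that ended further upstream, 1139 to 2177 bp before the TSS, were also listed in E14.5 replicate 1 and in both neonatal lists, and neonatal replicate 2 listed another that ended 916 bp before it. Within 3 kb of the gene, a peak at its downstream side was thus listed in the 4 embryonic and neonatal lists and in none of adult or TAC CMCs, and TAC replicate 2 listed no peak on either side.

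In the Gq group, Prkce and Gna11 were covered more at each point up to the adult. Prkce (chr17:86167785-86657919, plus strand), protein kinase C epsilon, had 14.7 and 16.2% in embryos, 17.9 and 23.2% in pups, 27.5 and 31.3% in adults and 26.7 and 11.2% after TAC. Its points did not overlap up to the adult, and TAC replicate 1 lay just below the adult lists. Gna11 (chr10:81528724-81545162, minus strand), an alpha subunit of the Gq family, had 3.05% in both embryonic lists, 12.9 and 18.4% in pups, 24.1 and 37.1% in adults, 29.2% in TAC replicate 1 and 0% in replicate 2. Its TAC replicates thus lay at the adult level and at no peak at all. Without TAC replicate 1 the log2 difference from adult to TAC was -4.95, which rests on the displaced list of TAC replicate 2 alone.

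Rgs2, which turns off Gq, is 4.81 kb long and had 10.4 and 25.6% in embryos, 15.8 and 31.0% in pups, 14.53 and 20.01% in adults and 10.4% in each TAC list. Its E14.5 and neonatal replicates differed by more than the means of the points up to the adult did, and a single peak of the median width, 501 bp, makes up 10.4% of so short a span. Plcb1 and Prkcb, a phospholipase C and protein kinase C beta, had low coverage (0.455 to 2.77% and 2.64 to 8.05% over the 8 lists), whereas their relatives Plcb4 and Prkca ranged from 9.03 to 17.2% and from 7.54 to 19.9%.

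In the cyclic nucleotide group, Prkar1a and Prkaca, the regulatory and the catalytic subunit of protein kinase A, were covered most. Prkar1a (chr11:109649023-109669663, plus strand) had 20.3 and 11.1% in embryos, 33.2 and 29.2% in pups, 24.8 and 15.0% in adults and 3.04 and 22.8% after TAC. It was the gene in which TAC replicate 2 was most clearly above replicate 1. Prkaca (chr8:83972978-83996444, plus strand) had 5.92 and 6.20% in embryos, 19.99 and 13.5% in pups, 10.9 and 26.7% in adults and 10.03 and 9.20% after TAC. Its neonatal lists were above the embryonic ones (log2 1.31 ± 0.49 SE; limma, adjusted p = 0.70) and its TAC lists below the adult ones under both scalings. The long genes Pde4d and Prkg1, a cyclic AMP phosphodiesterase and the cyclic GMP kinase, lay between 0.797 and 5.16% in all lists, and Pde5a, the cyclic GMP phosphodiesterase, between 0 and 6.46%. Akap6, which anchors protein kinase A at the nuclear envelope of CMCs, had means of 6.54, 9.75, 11.3 and 6.96% at E14.5, neonatal, adult and TAC.

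Of the calcineurin and NFAT group, Rcan1 and Nfatc2 were among the most covered genes of the 48. Rcan1 (chr16:92391951-92466169, minus strand), an inhibitor of calcineurin that is itself a target of NFAT, had 29.1 and 27.4% in embryos, 36.5 and 57.7% in pups, 41.0 and 58.1% in adults and 48.5 and 18.9% after TAC. TAC replicate 1 lay within the adult range and replicate 2 below it, and the widest peak centred in any of the 48 genes, 11143 bp, lay in Rcan1 in TAC replicate 1. Nfatc2 (chr2:168476410-168601657, minus strand) had 31.9 and 26.6% in embryos, 38.9 and 40.2% in pups, 40.1 and 46.3% in adults and 37.4 and 13.0% after TAC. TAC was lower as listed (log2 -0.93; limma, adjusted p = 0.75) but not when scaled.

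The 4 NFAT genes ranged from a mean of 2.11% (Nfatc3) to 34.3% (Nfatc2) over the 8 lists. Nfatc1 had a mean of 20.01% over the 8 lists, with 19.9 and 27.4% in adult and 13.6 and 9.20% in TAC lists, which did not overlap under either scaling. Nfatc4 had a mean of 8.03%, and Nfatc3 was covered for 0 to 4.48%. Camk2g, a calcium/calmodulin kinase, had 26.8 and 27.4% in adult and 17.7 and 11.6% in TAC lists. Of the calcineurin subunits, Ppp3ca, a catalytic one, had 7.31 and 9.13% in embryos, 9.63 and 11.3% in pups, 10.8 and 10.1% in adults and 7.54 and 6.75% after TAC. Its TAC lists lay below the adult ones under both scalings. Ppp3r1, the regulatory subunit, had 2.75 and 2.78% at E14.5 and 6.77 and 9.65% in neonatal lists (log2 1.27 ± 0.50 SE; limma, adjusted p = 0.71). Ppp3cb, the other catalytic subunit, was covered little, with 5.73 and 2.40% in neonatal and 1.60 and 0% in adult lists (log2 -1.57 ± 0.64 SE; limma, adjusted p = 0.50).

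Akt1 was the most covered of the 48 genes and had the largest difference between adult and TAC in percentage points, with TAC the lower. Akt2 stood lower in TAC beside it. By log2 difference Gna11 (-2.49), Gsk3a (-2.36) and Akt2 (-1.63) differed more, Gna11 and Gsk3a with 0% in TAC replicate 2. Akt1 (chr12:112653821-112674884, minus strand), a kinase that carries the insulin and growth factor signal, had 41.7 and 47.9% in embryos, 45.0 and 66.2% in pups, 42.7 and 57.9% in adults and 25.8 and 10.4% after TAC. Both TAC lists lay below the other 6. The mean difference to adult was -32.2 percentage points, with a log2 difference of -1.53 ± 0.50 (SE; limma, adjusted p = 0.64). Without TAC replicate 2 the log2 difference was -0.92. It held 4 regions (2348 bp) common to the 7 lists other than TAC replicate 2, and 0 bp common to all 8.

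Akt2 (chr7:27591552-27640826, plus strand), the isoform best known for insulin-driven glucose uptake, had 16.1 and 9.91% in embryos, 25.6 and 27.0% in pups, 25.5 and 25.9% in adults and 12.2 and 4.62% after TAC. Its neonatal and adult lists lay between 25.5 and 27.0% and TAC below them in both replicates (log2 -1.63 ± 0.50 SE; limma, adjusted p = 0.60; without TAC replicate 2, -1.01). In this pair of genes, TAC replicate 1 alone was 24.5 and 13.5 percentage points below the adult mean.

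Foxo3 and Foxo1, transcription factors that drive atrophy genes when Akt is quiet, were covered more at each step to the adult. Foxo3 (chr10:42181845-42276695, minus strand) had 24.2 and 22.5% in embryos, 29.2 and 39.9% in pups, 48.7 and 54.3% in adults and 44.9 and 18.7% after TAC. Foxo1 had 10.6 and 14.2%, 15.1 and 21.1%, 34.3 and 32.7%, and 27.6 and 14.6%. For both genes TAC replicate 1 lay below the adult lists and above the neonatal ones and TAC replicate 2 below the neonatal ones; both TAC lists were below the adult lists as listed, but not when scaled. In the same pathway Pik3ca and Mtor, the catalytic subunit of PI3K and the growth kinase, had adult means of 10.7 and 10.6% and TAC means of 6.77 and 6.27%, lower without overlap under both scalings, whereas Gsk3a was at 0 in 3 lists.

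Among the MAP kinases, values of short genes scattered widely between replicates. Mapk3, which encodes ERK1 and is 6.19 kb long, had 8.09 and 18.3% in embryos, 8.09 and 30.8% in pups, 26.3 and 0% in adults and 21.0 and 0.727% after TAC. No point stood apart from another. Mapk14 (p38 alpha), at 57.1 kb, had 4.24 and 6.65% in embryos, 14.7 and 14.1% in pups, 13.4 and 18.6% in adults and 13.6 and 7.97% after TAC. Its neonatal lists were above the embryonic ones (log2 1.28 ± 0.42 SE; limma, adjusted p = 0.62). Adult and TAC did not separate in any of the 5 MAP kinases.

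Of the transcription factors, Srf was the only 1 of the 48 genes that was higher in both TAC lists than in both adult lists as listed. Srf (chr17:46546839-46556162, minus strand), which drives muscle and immediate early genes, had 16.1 and 16.0% in embryos, 27.8 and 34.8% in pups, 13.8 and 10.04% in adults and 28.3 and 13.9% after TAC. Its neonatal lists stood above the adult ones (log2 -1.33 ± 0.43 SE; limma, adjusted p = 0.41), TAC replicate 1 reached the neonatal level, and TAC replicate 2 was just above the higher adult value. The fit gave adult to TAC a log2 difference of 0.71 (limma, adjusted p = 0.75). The TAC lists largely covered different places in Srf, with 64 bp (0.686% of the span) in common, and the adult lists had 0 bp in common. Within 1 kb of its TSS, 39.4% was in peaks in TAC replicate 2 and 0% in TAC replicate 1 and in both adult lists. Myocd, the partner of Srf, had means of 15.3, 26.0, 18.1 and 12.5% at E14.5, neonatal, adult and TAC.

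Klf15 (chr6:90462576-90479686, plus strand), a repressor of hypertrophic growth that also controls cardiac fuel use, had 6.97 and 3.74% in embryos, 31.4 and 25.4% in pups, 21.6 and 61.2% in adults and 32.3 and 15.5% after TAC. All 6 later lists lay above both embryonic ones, and the log2 difference from E14.5 to neonatal, 2.25 ± 0.63 (SE), had the lowest adjusted p of that step among the 48 genes (limma, 0.58). The adult replicates differed by more than any pair of points did, and adult and TAC overlapped.

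Within the genes, coverage was higher on exons than on introns and higher toward the start of the span. Outside 1 kb on each side of a TSS, exons of the 48 genes were covered for 10.6 ± 0.265% in embryos, 15.7 ± 1.28% in pups, 21.0 ± 3.82% in adults and 11.5 ± 6.74% after TAC (mean ± SD, n = 2). Introns were covered for 7.96 ± 0.0301, 10.99 ± 1.47, 10.9 ± 1.27 and 7.41 ± 2.69% (mean ± SD, n = 2). In TAC replicate 1 alone exons were covered for 16.25% and introns for 9.31%. From neonatal to adult the mean of the exons was higher and that of the introns was not; over all genes of at least 2 kb it was 8.56 and 10.7% on exons and 6.37 and 5.84% on introns. Of 3 equal parts of the span, the part at the 5′ end had 13.0 ± 1.55% in adult CMCs and the part at the 3′ end 9.12 ± 1.19%, against 6.60 and 5.93% over all genes.

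The promoters of the 48 genes were in peaks about as often as those of all genes, above their share in 5 lists and below it in 3. Within 1 kb of a TSS, 7 to 15 of the 48 genes had a peak in a list (14.6 to 31.2%), against 18.9 to 26.6% of all genes of at least 2 kb, and 21 of the 48 had none in any list, among them Igf1r, Foxo1, Foxo3 and Prkce. The 5 genes with a promoter peak in 7 lists were Adra1b, Plcb4, Nfatc2, Rcan1 and Akt2.

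Base pairs common to both replicates of a point were counted as the firmer sites. A common region was found in 43 of the 48 genes in embryos, 43 in pups, 39 in adults and 34 after TAC, against 46.7, 52, 46.6 and 31.3% of all genes of at least 2 kb. These shares were not matched for length, on which holding any common region can depend, so they do not set the 48 genes apart. The common base pairs of the 48 genes are given next. Those base pairs summed to 265, 449, 421 and 96.8 kb. The Jaccard index of the replicates within the 48 genes was 0.243, 0.314, 0.286 and 0.0826, and the highest of any 2 lists, 0.414, was between E14.5 replicate 2 and neonatal replicate 2. Replicates were thus not always the most alike. Where both peaks had to share at least 50% of their length, 18 genes had a common peak in TAC, and 40, 41 and 37 at the other points.

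Regions in both lists of a single point and in no other list were most numerous in the adult. There were 220 such regions in 37 genes for adult (45795 bp), 175 in 33 genes for neonatal (32087 bp), 72 in 25 genes for E14.5 (11306 bp) and 55 in 20 genes for TAC (9502 bp). As for the regions common to 7 lists, no minimum size was set, so that the edge of a peak shared with other points could count. In Akt1 the region of the adult alone was 2 bp long, and in Ednra that of TAC alone was 2 bp. The same count was not made for all genes. No read counts stood behind these lists, so that a region missing from a list may lie just below its threshold, and the low number for TAC goes with the displaced peaks of its replicate 2. The 2 genes with the widest region of the adult are shown first and those of TAC after them, as sites listed at that point alone, up to 300 bases at the middle of the region, with CpGs in capitals.
Foxo3, chr10:42256417-42256716: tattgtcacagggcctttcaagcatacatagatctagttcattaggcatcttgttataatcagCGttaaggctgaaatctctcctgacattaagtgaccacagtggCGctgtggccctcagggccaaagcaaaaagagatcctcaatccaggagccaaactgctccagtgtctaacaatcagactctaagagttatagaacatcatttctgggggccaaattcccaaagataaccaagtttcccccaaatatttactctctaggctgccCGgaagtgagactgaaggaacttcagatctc
Gna11, chr10:81536063-81536362: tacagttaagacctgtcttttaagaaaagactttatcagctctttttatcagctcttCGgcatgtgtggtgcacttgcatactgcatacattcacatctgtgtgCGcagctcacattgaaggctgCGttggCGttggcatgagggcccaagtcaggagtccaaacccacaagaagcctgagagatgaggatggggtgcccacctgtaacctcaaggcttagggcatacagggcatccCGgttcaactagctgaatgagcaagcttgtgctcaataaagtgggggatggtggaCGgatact
Prkce, chr17:86180755-86181054: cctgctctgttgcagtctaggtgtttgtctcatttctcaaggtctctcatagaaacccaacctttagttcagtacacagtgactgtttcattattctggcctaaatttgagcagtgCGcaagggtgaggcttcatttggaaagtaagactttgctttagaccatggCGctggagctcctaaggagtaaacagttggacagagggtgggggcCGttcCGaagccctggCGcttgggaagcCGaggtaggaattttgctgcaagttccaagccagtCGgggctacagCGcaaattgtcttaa
Pde4d, chr13:108689468-108689767: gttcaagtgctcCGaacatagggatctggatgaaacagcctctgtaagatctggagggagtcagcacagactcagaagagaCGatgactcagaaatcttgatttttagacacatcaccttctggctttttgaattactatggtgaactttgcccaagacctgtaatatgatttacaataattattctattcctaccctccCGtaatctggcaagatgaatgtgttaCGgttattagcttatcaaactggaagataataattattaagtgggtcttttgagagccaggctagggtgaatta

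These 4 regions lay in introns and held 3 to 8 CpGs each in the stretch shown. Those of the adult were 1071 and 946 bp wide, in Foxo3 and Gna11, and those of TAC 837 and 763 bp, in Prkce and Pde4d. Prkce thus held both a site common to the 7 lists other than TAC replicate 2, of whose 2066 bp 1518 lay in peaks of that list too, and a site listed in TAC alone, 163 and 13.1 kb after its first TSS.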

How the data were processed

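The deposited files are 8 peak lists of hMeDIP sequencing. Per the study's methods and the labels, the authors aligned reads to mm10 with BWA 0.7.4-r385, filtered them with Picard's MarkDuplicates and by mapping quality, and ran HOMER in histone mode on each replicate with input as control. Peak start and end were used; the deposited score is 1 for every peak and ranks nothing. The lists give no reads, so depth is unknown and no interval is given. Per the file headers, tags of the precipitate were normalized to the control in both TAC lists and in replicate 2 of neonatal and of adult CMCs, and control tags to the precipitate in the other 4. Input and sh-control libraries were not used here.

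Gene spans came from 37786 curated RefSeq coding transcripts of GRCm38. Coverage was computed with Python 3.11.15, numpy 2.4.6 and pandas 2.3.3, and sequences were read with pysam 0.24.0. Differences were fitted with limma 3.58.1 (R 4.3.3, eBayes with trend, 1 mean per point, Benjamini-Hochberg over 14737 genes), on log2 with a pseudocount of 1 percentage point, and the fit was tested on simulated data. Genes were those of at least 2 kb with a peak in at least 3 of 8 lists. Samples with the same replicate number deviated together with r = 0.232 for E14.5 and neonatal and 0.111 for E14.5 and TAC. For the other pairs of points r was 0.0307 to 0.0605. The numbers were not taken to pair samples, though a link between E14.5 and neonatal lists of the same number remains possible.

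The 48 genes, the pathway and marker lists and the rules were chosen with earlier results of these data known. Values per sample are given for the 2 most covered genes of each role, for the 3 with the largest higher and lower values in TAC among those without overlap (only 1 was higher) and, chosen after their values were seen, for Adrb1, Adra1a, Adra1b, Agtr1a, Gna11, Akt2, Foxo1, Camk2g, Nfatc1 and the calcineurin subunits. Sequences are from the 4 genes with the most base pairs common to 7 lists and the 2 with the widest region of adult and of TAC alone. Alternatives were the pseudocount, filters, scaling, centring, peak width, the TSS left out, peak centres, each replicate left out and the replicate block; the first 50% of the peaks, scaling without TAC replicate 2 and the shares by length and coverage class were added after seeing the data.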

Additional observations from a re-analysis of the deposited data

How the results depend on the processing

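Of the 19 settings of the fit, those that kept both replicates of each point called 0 of the 48 genes in any comparison. Without TAC replicate 1 the log2 difference of Gna11 from adult to TAC was -4.95, with TAC replicate 2 as the only TAC list. The 11 single differences with an unadjusted p below 0.05, picked by that p in these data, held their direction in all 193 alternative values. Many of these values could not differ from the main one. Other gene filters, the replicate block and leaving out a replicate of another point leave the estimate unchanged. None of the 193 passed the threshold. Replicate numbers are shared between points but were not taken to pair the samples. With the replicate block 0 of the 48 genes were called in each comparison, as without it. The adult minus TAC difference of the 48 genes ranged from 2.45 to 9.22 percentage points when a replicate was left out. It was 3.74 when scaled to genome coverage and 0.352 when scaled without TAC replicate 2.

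The excess over genes of the same length held its sign throughout. At E14.5 it was 4.96 points against the 200 genes nearest in length, 4.75 when scaled to genome coverage and 2.34 with peaks of at least 1 kb; in neonatal 7.48 when scaled and 5.69 with peaks of at least 1 kb; in adult 6.40 with those peaks. In TAC, 5.49 as listed, it was 6.82 when scaled and 2.65 with peaks of at least 1 kb. Leaving out a replicate gave 4.91 to 4.92 at E14.5, 8.30 to 9.77 in neonatal, 8.42 to 10.1 in adult and 3.12 to 7.86 in TAC.

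Counts of genes without overlap moved most. When scaled, 19 genes were higher and 8 lower from neonatal to adult, and 2 higher and 12 lower from adult to TAC. With a replicate left out, which makes overlap less likely by construction, 31 to 40 were higher and 4 to 5 lower from E14.5 to neonatal, and 3 to 5 higher and 27 to 34 lower from adult to TAC. From neonatal to adult 11 to 20 were higher (19 without neonatal replicate 2 and 20 without adult replicate 1) and 16 to 25 lower (24 without neonatal replicate 1 and 25 without adult replicate 2). Where both peaks had to share at least 50% of their length, 18 genes had a common peak in TAC. The lists give no depth, and their headers differ in scaling; the part of either in these values was not tested.
The difference between adult and TAC also was not recomputed with a replicate block, a pseudocount or centring, which leave a mean of percentages unchanged or have no value on that scale.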
